A study of Mus musculus with 8 samples.

Results

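The *Nr2e1* locus was taken as the CpGs listed on chromosome 10 between positions 42281769 and 42308438 of the mouse genome build mm9, which is the gene (ENSMUSG00000019803, minus strand, 42281769 to 42303438) with the 5 kb upstream of its transcription start site (TSS, position 42303438). The window of 26670 bases held 90 listed CpGs out of 757812 in the whole series (0.0119%), and the same 90 were present in all 8 libraries. A total of 40 of them lay between −1 kb and +0.5 kb of the TSS (42302938 to 42304438) and are called TSS-proximal, and the other 50 lay outside these limits. The gene was chosen by its loss of 5-methylcytosine (5mC) in the oxBS libraries after *Tet3* knockdown (KD). Its change in these libraries, calls of single CpGs included, is therefore a description and no independent evidence of a loss. The comparison of shTet3 with shScr rests on the BS libraries, although they are taken to share the DNA of the oxBS libraries.

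The libraries are oxRRBS libraries of neural precursor cells (NPCs) differentiated from A2lox.cre, a male mouse ES cell line of the strain 129P2/OlaHsd into which a doxycycline-inducible shRNA can be placed. Cells carried a non-targeting control hairpin (shScr) or a hairpin directed at *Tet3* (shTet3), and all of them, controls included, received doxycycline at 2 µg/ml for 5 days. Each shRNA had 2 replicates, each with a pair of libraries from DNA (100 ng) cut with MspI at CCGG. BS reads 5mC together with 5-hydroxymethylcytosine (5hmC) as C, and oxBS reads 5mC alone as C. The titles give the libraries of a pair only the same number, so a shared DNA sample is assumed. The labels do not say whether the replicates came from separate clones or differentiations, so the spread between them may be technical, and only a single shRNA against *Tet3* was used. The files hold methylation calls and no expression, so neither the KD nor the identity of the cells by their markers could be checked here.

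*Nr2e1* encodes TLX, an orphan nuclear receptor that acts in the nucleus mostly as a transcriptional repressor. It is expressed in neural stem cells of the forebrain and the retina, where it is known for keeping the cells proliferating and undifferentiated by recruiting corepressors such as histone deacetylases and LSD1 to genes such as *Cdkn1a*. DNA methylation at CpG-rich promoters is usually low and goes with silencing when it is high, whereas CpGs in introns are usually methylated.

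Each library had 42516767 to 61865967 calls and a median of 43 to 54 calls per CpG. At the *Nr2e1* CpGs the median coverage was lower in most libraries, between 17 and 58, and the range ran from 5 to 304. The 95% Wilson intervals given below cover counting error only, since reads amplified by PCR without molecular identifiers are not independent molecules. Over all CpGs covered by 10 or more calls in each of the 4 BS libraries, the mean level was 26.5% and 31.3% in the shScr replicates against 22.0% and 22.3% in the shTet3 replicates. Hence, over the genome shScr replicate 2 was the higher of the shScr replicates.

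The stretches that carry the results are given first, as the forward strand of mm9 from 5′ to 3′, with each listed CpG in capitals. The stretches at +5 kb, +4 kb and +3.5 kb lie in the first intron of *Nr2e1*, and the one at −1.1 kb in an intron of *Ostm1*. They are shown because the shScr replicates were far apart in them. The stretch at −0.7 kb lies in a non-coding exon of *Ostm1* and is shown as a part of the TSS-proximal CpGs with mostly low levels. Its 12 listed CpGs belong to a longer group, from −661 to −1001. Levels in this group were higher at some CpGs farther upstream, such as 42.3% and 47.1% in the shScr BS libraries at −871. Some of the 12 had fewer than 10 calls in a BS library.
Intron at +5 kb, chr10:42298404-42298444: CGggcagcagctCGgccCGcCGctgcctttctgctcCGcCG
Intron at +4 kb, chr10:42299323-42299456: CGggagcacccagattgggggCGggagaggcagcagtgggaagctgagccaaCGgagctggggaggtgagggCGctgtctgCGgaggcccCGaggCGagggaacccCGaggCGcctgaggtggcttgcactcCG
Intron at +3.5 kb, chr10:42299954-42299998: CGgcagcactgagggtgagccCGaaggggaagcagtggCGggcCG
Upstream at −1.1 kb, chr10:42304544-42304622: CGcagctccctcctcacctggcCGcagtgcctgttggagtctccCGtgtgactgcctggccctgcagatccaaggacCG
Upstream at −0.7 kb, chr10:42304099-42304265: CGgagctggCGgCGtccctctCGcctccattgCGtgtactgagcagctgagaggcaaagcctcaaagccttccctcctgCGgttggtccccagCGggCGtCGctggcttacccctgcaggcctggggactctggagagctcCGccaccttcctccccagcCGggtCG

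The window holds 600 CpGs and 57 CCGG sites in the mm9 sequence, so the 90 listed CpGs were 15% of its CpGs. They fell into 10 groups separated by more than 100 bases, and 8 of these groups began at an MspI site. The listed CpGs lay only around the 5′ end of the gene, from position 42298404 (5034 bases inside the gene) to 42307133 (3695 bases upstream). The remaining 16635 bases of the gene, which hold exons 2 to 9 and 233 CpGs, had no listed CpG, so nothing is known here about most of the gene body. The nearest listed CpG below the window, at 42277155, had 41.4% and 88.2% in the shScr BS libraries against 63.2% and 43.8% in the shTet3 BS libraries. The nearest one above it, at 42311154, had 0% to 6.49% in the 8 libraries.

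The annotation gives *Nr2e1* further transcript starts at 42288634, 42300151 and 42300580, so that the CpGs at +3.5 kb, which are in the first intron of the longest transcript, lie just inside the start of a shorter transcript and partly in its untranslated first exon. *Ostm1*, whose protein is needed for the lysosomal chloride transporter of osteoclasts, starts at 42303628 on the opposite strand, only 190 bases away. The CpGs upstream of the *Nr2e1* TSS therefore lie in *Ostm1*, and methylation there cannot be attributed to either gene. With 10 or more calls required in every library of a comparison, 72 CpGs were kept in the BS libraries (31 TSS-proximal and 41 other), 69 in the oxBS libraries (27 and 42) and 62 in all 8 libraries (21 and 41). Of the 13 CpGs within 0.5 kb of the TSS, 10 were kept in the BS libraries and 0 in all 8, so the start site itself was kept only in the BS libraries, at a coverage of 10 to 23. At the upstream limit of the TSS-proximal part, the last CpG inside (−993) had BS levels of 22.6%, 19.6%, 15.1% and 29.2% in shScr replicates 1 and 2 and shTet3 replicates 1 and 2, and the next one outside (−1001) had 27.2%, 16.7%, 8.77% and 8.89%.

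**Figure D1:**
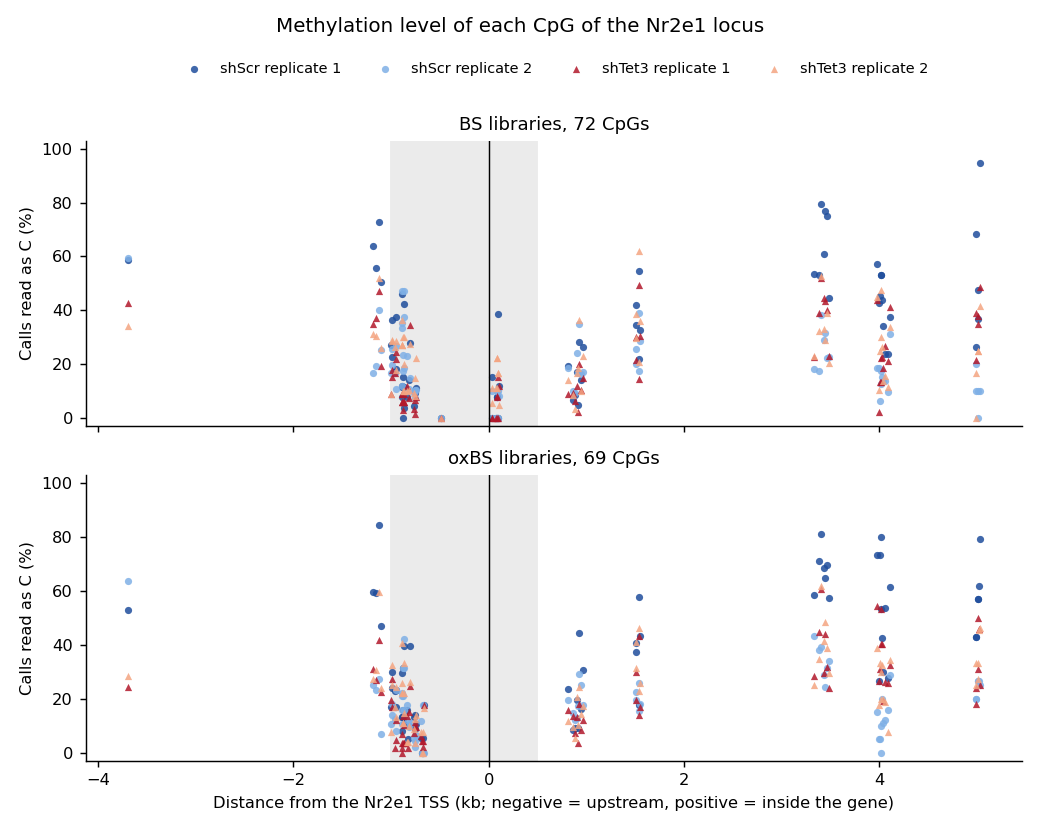
Level of each CpG of the *Nr2e1* locus (percent of calls read as C) against its distance from the TSS in kb, in the 4 BS libraries (top, 72 CpGs) and the 4 oxBS libraries (bottom, 69 CpGs). Circles are shScr and triangles shTet3 replicates, the vertical line is the TSS and the grey band the TSS-proximal part, and outside this band shScr replicate 1 lies above both shTet3 replicates at 34 of 41 CpGs in BS and reaches 94.7%.

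The locus had a trough of methylation at its TSS. In the group of CpGs from +106 to +29, in the 5′ untranslated region, the mean BS level was 9.0% and 5.37% in the shScr replicates against 4.80% and 13.5% in the shTet3 replicates (9 CpGs, 10 to 21 calls each). The single covered CpG at −485 was at 0% in the 4 BS libraries, with 10 to 23 calls each. Levels were higher on both sides of this trough, as the plot of each CpG against its distance from the TSS shows.

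Among the TSS-proximal CpGs, the lowest, median and highest BS levels were 0%, 11.5% and 46.2% in shScr replicate 1, and 0%, 10.7% and 47.1% in shScr replicate 2. In shTet3 they were 0%, 7.30% and 34.5% in replicate 1 and 0%, 18% and 36.4% in replicate 2. The 4 libraries overlapped over almost their whole range. Among the other CpGs, the lowest, median and highest BS levels were 4.72%, 43.8% and 94.7% in shScr replicate 1, but 0%, 18.3% and 59.5% in shScr replicate 2. In shTet3 they were 2.10%, 22.9% and 52.1% in replicate 1 and 0%, 26.0% and 62.1% in replicate 2. Thus shScr replicate 1 stood above the other BS libraries at the CpGs away from the TSS, and 23 of its 41 values were over 40%, against 2 in shScr replicate 2, 10 in shTet3 replicate 1 and 6 in shTet3 replicate 2.

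**Figure D2:**
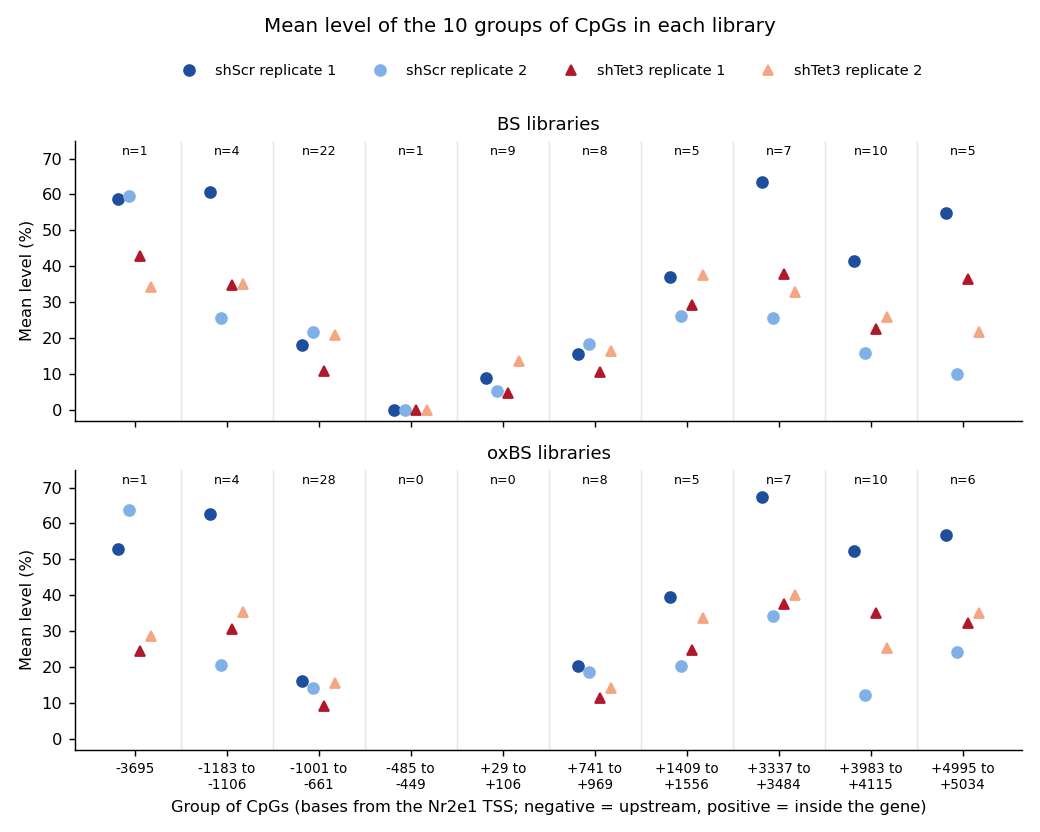
Mean level (percent of calls read as C) of each of the 10 groups of CpGs in the 4 BS libraries (top) and the 4 oxBS libraries (bottom), ordered by distance from the TSS in bases, with n the number of CpGs that have 10 or more calls. Circles are shScr and triangles shTet3 replicates. At −1183 to −1106 and at the groups from +3337 on, shScr replicate 1 is the highest and shScr replicate 2 the lowest library in both panels.

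The groups of CpGs differed in how the libraries were ordered. In the intron at +5 kb (6 listed CpGs, GC content 78.0%), the mean BS level was 54.7% and 10% in the shScr replicates against 36.4% and 21.7% in the shTet3 replicates. In the intron at +4 kb (10 CpGs) it was 41.5% and 15.8% in shScr against 22.6% and 25.9% in shTet3. In the group at +3.5 kb (7 CpGs, of which the printed stretch holds 4, 56 to 265 calls each) it was 63.4% and 25.6% in shScr against 37.9% and 32.8% in shTet3. In these stretches shScr replicate 1 was the highest library, shScr replicate 2 the lowest, and both shTet3 replicates lay between them. Upstream, the 4 CpGs from −1106 to −1183 had the same order, with 60.7% and 25.5% in shScr against 34.7% and 35.0% in shTet3. The order of the oxBS libraries was the same in these stretches. At −1.1 kb, for example, the oxBS level was 62.6% and 20.6% in shScr against 30.6% and 35.4% in shTet3.

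In the intron from +1556 to +1409 (5 covered CpGs) the BS level was 37.1% and 26.2% in shScr against 29.1% and 37.4% in shTet3, and the oxBS level was 39.4% and 20.3% against 24.7% and 33.6%, so the order was that of the stretches farther in only in the oxBS libraries. In the next group, 8 of 15 listed CpGs were covered, from +969 to +816 in the first intron, and the BS level was 15.6% and 18.5% in shScr against 10.5% and 16.4% in shTet3. In the group from −661 to −1001, which holds 27 of the 40 TSS-proximal CpGs, it was 18% and 21.6% in shScr against 10.8% and 20.9% in shTet3. In both groups the shScr replicates were within 4 points of each other, and shTet3 replicate 1 was the lowest library. The CpG at −3695, in an intron of *Ostm1*, had 58.6% (95% interval 40.7 to 74.5) and 59.5% (43.5 to 73.7) in the shScr BS libraries against 42.9% (30.8 to 55.9) and 34.1% (21.6 to 49.5) in the shTet3 BS libraries. The oxBS libraries had 52.8% and 63.6% against 24.5% and 28.6%. It is the only one of the 10 groups in which the higher shTet3 replicate was more than 10 points below the lower shScr replicate in BS and in oxBS libraries.

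The question whether *Tet3* KD lowers methylation at the locus was tested in the BS libraries. The mean level of the 72 CpGs was 30.8% and 18.7% in the shScr replicates (24.8% ± 8.55, SD, n = 2) against 18.9% and 23.2% in the shTet3 replicates (21.1% ± 3.02, SD, n = 2). The difference of −3.71 percentage points was smaller than the SD of the shScr replicates, and the 2 groups overlapped (two-sided exact permutation test, p = 1, the smallest p that 2 against 2 libraries can give being 0.33). Over all CpGs the difference was −6.77 points, and the groups did not overlap (p = 0.33 by the same exact permutation test).

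At the TSS-proximal CpGs, the mean BS level was 14.5% and 16.3% in shScr (15.4% ± 1.30, SD, n = 2) against 8.75% and 18.5% in shTet3 (13.6% ± 6.89, SD, n = 2). The difference of −1.78 points was within the spread of the shTet3 replicates, which lay on either side of both shScr replicates (exact permutation test, p = 1). At the other CpGs, the mean was 43.2% and 20.6% in shScr (31.9% ± 16, SD, n = 2) against 26.7% and 26.8% in shTet3 (26.7% ± 0.0846, SD, n = 2). The difference of −5.17 points was within the spread of the shScr replicates (exact permutation test, p = 1). It was −16.5 points against shScr replicate 1 and +6.14 points against shScr replicate 2, so its direction depended on which control library was used. The difference between the TSS-proximal and the other CpGs in their response, 3.39 points, was likewise within the spread of the replicates (exact permutation test, p = 1).

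Single CpGs were called by a likelihood ratio test of a logistic regression, adjusted over all CpGs (Benjamini-Hochberg), with *q* under 0.01 and pooled levels more than 10 percentage points apart. In the BS libraries, 3 of the 72 CpGs were lower in shTet3, 2 of 31 TSS-proximal and 1 of 41 other CpGs, which is 4.17%, against 13.8% of all CpGs. The number higher in shTet3 was 0 of 72, against 0.0621% of all CpGs. At an unadjusted p under 0.05 in the likelihood ratio test, 13 of the 72 were below and 2 above, against 27.7% and 1.44% of all CpGs. An F test corrected for overdispersion put 0 in each direction at this unadjusted level, against 1.86% and 0.00334% of all CpGs. The shTet3 replicates were the lowest pair of BS libraries at 12 of the 72 CpGs (5 of 31 TSS-proximal and 7 of 41 other), which is 16.7%, against 26.1% of all CpGs, and the highest pair at 1, against 1.96% of all CpGs. The shares of lower CpGs at the locus were below those of all CpGs by both measures. The median difference of single CpGs went the other way, with −3.66 points at the locus against −0.549 points over all CpGs. Calls also depend on depth, and the median coverage of the BS libraries was 17 to 46 at the locus against 44 to 52 over all CpGs. These shares therefore do not show that the locus lost less than other CpGs.

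The 3 CpGs called in the BS libraries lay at +4004 in the first intron and at −871 and −892 in *Ostm1*. At +4004 (position 42299434) the BS level was 42.9% (95% interval 26.5 to 60.9) and 18.8% (6.59 to 43.0) in shScr against 2.22% (0.393 to 11.6) and 10.5% (2.94 to 31.4) in shTet3, a pooled difference of −29.4 points (*q* = 0.0006, likelihood ratio test with Benjamini-Hochberg adjustment). Its oxBS level was 26.7% and 5.00% in shScr against 26.7% and 17.6% in shTet3, and shTet3 was thus not lower there. At −871 (42304309) the BS level was 42.3% and 47.1% in shScr against 5.88% and 20% in shTet3, a difference of −35.1 points (*q* = 0.0014, same test), and the oxBS level was 39.5% and 42.1% against 10.3% and 33.3%. At this CpG the shTet3 replicates were below the shScr replicates without overlap in BS and oxBS libraries, with 10 to 58 calls each. At −892 (42304330) the BS level was 46.2% and 33.3% in shScr against 5.88% and 27.3% in shTet3 (−29.3 points, *q* = 0.0076, same test), whereas the oxBS level was 13.2% and 10.5% against 6.90% and 25.9%. With 20 or more calls required, 0 of the 3 were called, since each had a library with fewer than 20 calls.

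In the oxBS libraries, from which the gene was chosen, the mean 5mC of the 69 CpGs was 35.5% and 18.8% in the shScr replicates against 20.7% and 23.7% in the shTet3 replicates. The TSS-proximal CpGs had 16.2% and 14.3% in shScr against 8.82% and 16% in shTet3. The other CpGs had 47.9% and 21.8% in shScr against 28.3% and 28.7% in shTet3, a difference of −19.5 points from shScr replicate 1 and of +6.73 points from shScr replicate 2. The calls made across all CpGs with the thresholds given above, which use the values that chose the gene and so test nothing here, put 9 of the 69 CpGs among the hypo-DMPs (1 of 27 TSS-proximal and 8 of 42 other), which is 13.0%, beside 13.9% of all CpGs, and 0 among the hyper-DMPs, beside 0.0814%. The shTet3 replicates were the lowest pair of oxBS libraries at 13 of the 69 CpGs, beside 26.3% of all CpGs, and the highest pair at 1, beside 2.04%.

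A total of 5 of the 9 hypo-DMPs lay in the group at +3.5 kb, at positions 42299954, 42299975, 42299997, 42300055 and 42300101. Those at 42300055 and 42300101 lie beyond the printed stretch, in the untranslated first exon of the shorter transcript. Their 5mC ranged from 57.6% to 71.3% in shScr replicate 1, from 28.7% to 43.3% in shScr replicate 2, from 23.9% to 44.9% in shTet3 replicate 1 and from 25.3% to 41.3% in shTet3 replicate 2. So shScr replicate 1 did not overlap the other libraries, whereas shScr replicate 2 overlapped both shTet3 replicates. The hypo-DMP at 42301882 (+1556) had 43.3% and 18.1% in shScr against 16.8% and 25.7% in shTet3. The one at 42302516 (+922) had 44.4% and 29.3% in shScr against 18% and 24.4% in shTet3. The only TSS-proximal hypo-DMP, at 42304400 (−962), had 23.0% and 12.3% in shScr against 1.89% and 17.0% in shTet3. The last is the CpG at −3695 described above.

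At 9 of these 9 hypo-DMPs both shTet3 replicates lay below shScr replicate 1, and at 4 of 9 (42299954, 42300101, 42302516 and 42307133) also below shScr replicate 2. These orders use the oxBS values that made the calls and are a description. The BS libraries, which the choice of the gene did not use, had 47.1% and 27.7% in shScr against 31.1% and 31.3% in shTet3 on average at these 9 CpGs. Their BS difference was negative at 7 of 9, between −19.9 and 3.47 points, and 0 of 9 were called in the BS libraries. Conversely, 0 of the 3 CpGs called in the BS libraries were hypo-DMPs in the oxBS libraries. Of all CpGs, 13.8% were called lower in BS and 13.9% in oxBS. How many of the CpGs called in one kind of library were also called in the other was not counted over all CpGs. Whether these overlaps are unusual thus cannot be judged. The sign of the BS difference was not counted over all hypo-DMPs either. The 9 were picked as lower in oxBS libraries taken to share the DNA, so a negative sign at 7 of 9 tests nothing. The hypo-DMPs at +1556 and −962 were the ones whose BS difference was not negative, with 32.6% and 28.6% in shScr against 30.4% and 36.1% in shTet3 at +1556.

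The shScr replicates were then compared with each other, a test on reads that compares these libraries and not conditions. The shScr oxBS libraries entered the choice of the gene. Their values, here and in the comparisons of replicates below, are therefore a description and test nothing. In the BS libraries, replicate 1 was higher at 13 of 74 CpGs (17.6%, likelihood ratio test with the thresholds above), against 0.74% of all CpGs, and replicate 2 at 0 of 74, against 5.57% of all CpGs. The 13 CpGs were 13 of 41 other and 0 of 33 TSS-proximal CpGs. In the oxBS libraries, replicate 1 was higher at 20 of 70 CpGs (28.6%), beside 0.764% of all CpGs, and replicate 2 at 0, beside 6.06%. Of these, 19 of 43 were other and 1 of 27 were TSS-proximal CpGs. Over the genome as a whole, the library that was more often the higher one was replicate 2.

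The largest differences between the shScr BS libraries were at 42298404, 42298440 and 42299975. At 42298404 (+5034) shScr had 94.7% (95% interval 75.4 to 99.1, 19 calls) and 10% (1.79 to 40.4, 10 calls), and shTet3 had 48.8% and 41.7%. At 42298440 (+4998) shScr had 68.4% (46.0 to 84.6) and 10% (1.79 to 40.4), which did not pass the threshold (*q* = 0.02, likelihood ratio test with Benjamini-Hochberg adjustment), and shTet3 had 39.1% and 16.7%. Both CpGs rest on few calls. By contrast, at 42299975 (+3463) shScr had 75% (66.2 to 82.1, 112 calls) and 22.2% (15.8 to 30.2, 126 calls) in BS (*q* = 8.8e-14, same test). In oxBS it had 69.6% and 31.5%. shTet3 had 40.1% and 39.0% in BS and 31.7% and 39.0% in oxBS there, between the shScr replicates in both. The most deeply covered CpG of this stretch, at 42300032 (+3406, 137 to 304 calls), was picked for its depth after its values were seen. It was not a hypo-DMP and had 79.5% and 38.3% in shScr against 52.1% and 52.6% in shTet3 in BS, and 81.0% and 39.2% against 60.9% and 61.7% in oxBS. There, too, the shTet3 replicates lay together between shScr replicates whose intervals did not overlap (73.6 to 84.4 and 31.9 to 45.2 in BS).

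**Figure D3:**
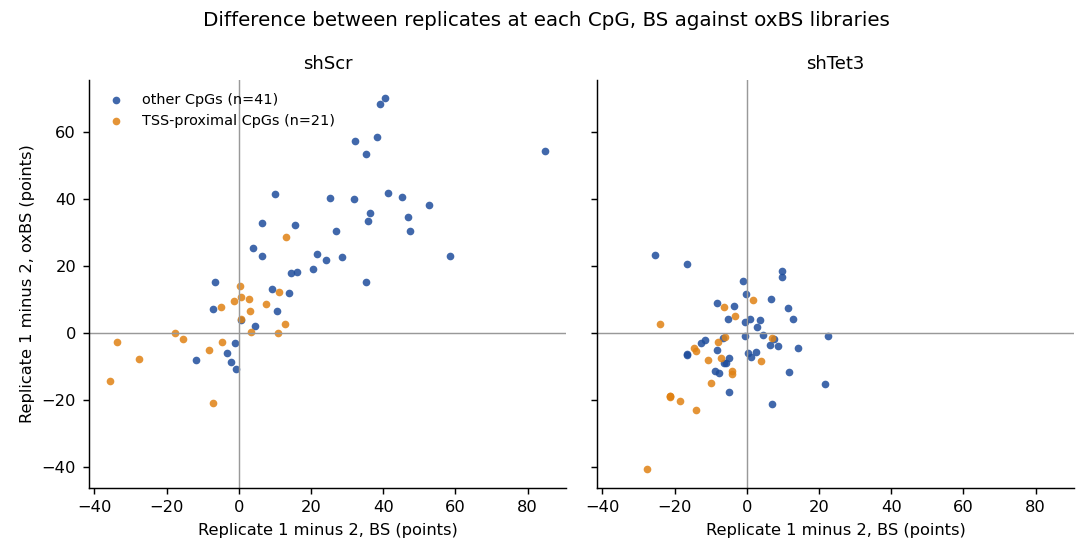
Difference between replicate 1 and replicate 2 at each CpG in the oxBS libraries (vertical, percentage points) against the same difference in the BS libraries (horizontal, percentage points) for shScr (left) and shTet3 (right), over the 62 CpGs with 10 or more calls in all 8 libraries. Blue points are the 41 other and orange points the 21 TSS-proximal CpGs, and the blue points of shScr lie mostly in the upper right, with medians of 21.8 points in BS and 23.6 points in oxBS.

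The difference between the shScr replicates was seen in both kinds of library, which are taken to be separate portions of 1 DNA sample. The oxBS values chose the gene, so the agreement of the 2 kinds is no independent evidence. Over the 62 CpGs covered in all 8 libraries, replicate 1 was more than 10 points above replicate 2 in BS and oxBS libraries alike at 29 CpGs (46.8%), 27 of 41 other and 2 of 21 TSS-proximal CpGs, against 1.81% of all CpGs. The opposite was seen at 1 of 62, against 14.4% of all CpGs. The median difference at the other CpGs was 21.8 points in BS and 23.6 points in oxBS, and at the TSS-proximal CpGs it was 0.235 and 2.63 points. Across the 62 CpGs, which share libraries and fragments and are not independent, the replicate difference in BS and in oxBS had r = 0.789 in shScr and r = 0.264 in shTet3. In shTet3 the median replicate difference of the other CpGs was −0.117 points in BS and −1.94 points in oxBS.

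The order of the libraries was also counted at single CpGs. Both shTet3 replicates lay below shScr replicate 1 and above shScr replicate 2 at 21 of 72 CpGs in BS (29.2%), 21 of 41 other and 0 of 31 TSS-proximal CpGs, against 1.73% of all CpGs. The reverse, with shScr replicate 2 on top, was found at 3, against 5.93%. In oxBS this order was found at 24 of 69 (34.8%), 21 of 42 other and 3 of 27 TSS-proximal CpGs, against 1.72% of all CpGs, and the reverse at 2, against 6.8%. Both shTet3 replicates were below shScr replicate 1 at 44 of 72 CpGs in BS, against 32.8% of all CpGs, but below shScr replicate 2 at only 18 of 72, against 47.1% of all CpGs. In oxBS these counts were 47 of 69, against 32.5%, and 18 of 69, against 47.9%.

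To see whether a middle level of methylation goes with such an order elsewhere, the 176249 CpGs whose mean level in shTet3 was within the range of the other *Nr2e1* CpGs (5.57% to 56.8%) were used. Their mean BS level was 43.1% and 54.3% in shScr against 34.7% and 33.2% in shTet3, and since they were chosen by their shTet3 level, only the shScr replicates can be compared with each other. Replicate 1 of shScr was more than 10 points above replicate 2 in both kinds of library at 5.58% of them, beside 65.9% of the 41 other CpGs of the locus, and the reverse held at 37.1%, beside 0% at the locus.

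**Figure D4:**
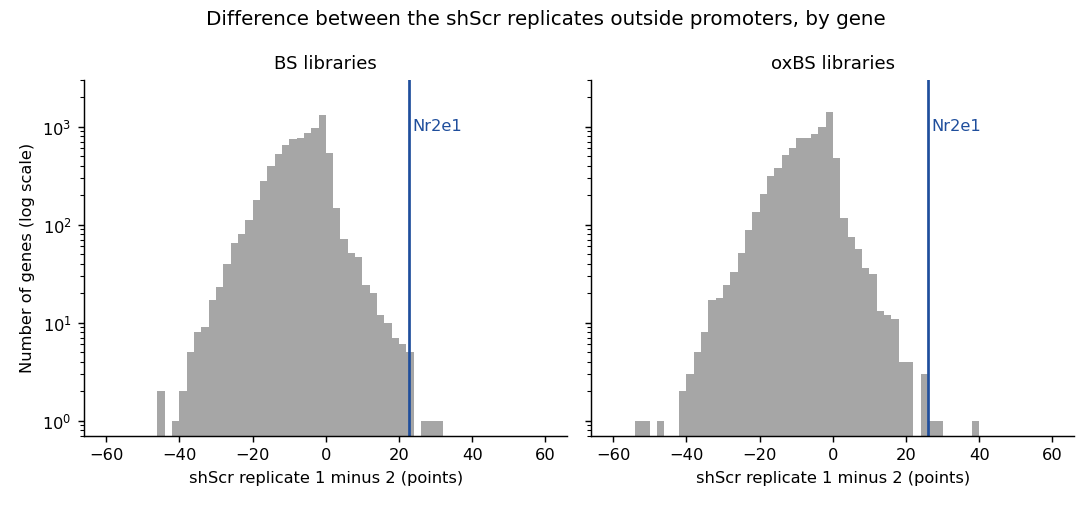
Number of protein-coding genes (log scale) by the difference between the shScr replicates (replicate 1 minus replicate 2, percentage points) in the mean level of their CpGs outside the promoter, for 8002 genes with at least 10 such CpGs, in BS (left) and oxBS (right) libraries. The blue line marks *Nr2e1*, at 22.6 points in BS and 26.0 points in oxBS, on the right edge of both distributions, whose medians are −5.77 and −5.84 points.

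The same comparison was made gene by gene, over 8002 protein-coding genes with at least 10 covered CpGs outside the promoter. The difference between the shScr replicates ranged from −45.1 to 30.5 points in BS and from −53.8 to 39.4 points in oxBS, with medians of −5.77 and −5.84. At *Nr2e1* it was 22.6 points in BS and 26.0 points in oxBS, and only 2 other genes, *Dbx1* and *Cd24a*, were at least as high in both. Both were named after their values were seen. *Dbx1*, a homeobox gene of the developing spinal cord, had 60.7% and 30.2% in the shScr and 37.3% and 33.8% in the shTet3 BS libraries. *Cd24a*, a cell surface protein of neural and blood precursors, had 39.0% and 9.88% in shScr against 22.2% and 19.97% in shTet3. In both genes the shTet3 replicates lay between the shScr replicates, as at *Nr2e1*. Both were picked for a wide gap between the shScr replicates, which favours this order. How many genes have it was not counted, so no likeness to *Nr2e1* follows from it. Replicate 1 was the higher of the shScr replicates in both kinds of library at 501 of the 8002 genes (6.26%). What set the shScr replicates apart at *Nr2e1* was not tested.

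Between the shTet3 replicates, a single CpG was called in each kind of library, and both are named here after their values were seen. In BS it was 42302521 (+917), with 2.10% in replicate 1 and 18.5% in replicate 2 (1 of 81 CpGs, against 0.346% of all CpGs with replicate 2 higher). In oxBS it was 42304323 (−885), with 0% of 58 calls (upper limit of the 95% interval 6.21%) and 40.7% (1 of 80, against 0.47% of all CpGs). Replicate 1 was higher at 0 CpGs of the locus in both kinds of library, against 0.163% of all CpGs in BS and 0.252% in oxBS. The shTet3 replicates differed mostly in the same direction at the TSS-proximal CpGs, where the median of replicate 1 minus replicate 2 was −9.86 points in BS and −8.02 points in oxBS. At the other CpGs their BS differences went both ways, with a group mean of 14.8 points at +5 kb and −8.27 points from +1556 to +1409. The shScr replicates differed mainly away from the TSS. Without shTet3 replicate 1, the BS difference of the TSS-proximal CpGs from shScr was +3.16 points in place of −1.78.

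The difference between BS and oxBS levels estimates 5hmC. In shScr it was −1.20 ± 3.18 points (SD, n = 2 replicates) over 63 CpGs of the locus, with −3.45 in replicate 1 and 1.05 in replicate 2, beside 0.373 over all CpGs. In shTet3 it was −0.340 ± 0.478 points (SD, n = 2 replicates) over 71 CpGs, with −0.678 and −0.00196, beside 0.307 over all CpGs. At the TSS-proximal CpGs the estimate was 1.64 ± 4.70 points in shScr (−1.68 and 4.97 in the replicates) and 1.33 ± 1.61 points in shTet3 (0.196 and 2.47), both SD with n = 2 and within the spread of the replicates. At the other CpGs it was negative in each replicate, −4.40 and −1.06 in shScr and −1.28 and −1.71 in shTet3, and a negative value cannot be 5hmC.

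No CpG of the locus had a BS level above the oxBS level by the thresholds above. The count was 0 of 63 in shScr, against 0.33% of all CpGs, and 0 of 71 in shTet3, against 0.0239%. With the BS level below the oxBS level it was also 0 and 0, against 0.17% and 0.0141% of all CpGs. At an unadjusted p under 0.05 (likelihood ratio test), 4 of 63 CpGs were above and 6 below in shScr, against 7.25% and 5.39% of all CpGs. In shTet3, 5 of 71 were above and 6 below, against 5.13% and 3.88%. With the F test at this unadjusted level 0 were so in each case, against only 0.00684% to 0.0329% of all CpGs. 5hmC was therefore not detectable at this depth at these CpGs, which does not show that it is absent, and the intragenic part of *Nr2e1* beyond the first intron was not measured.

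The promoters with levels nearest to those of the TSS-proximal CpGs of *Nr2e1* over the 8 libraries were then looked up. Over 8994 protein-coding genes with at least 10 covered promoter CpGs, the smallest root mean square differences from *Nr2e1* were found for *H2-Q7* (2.29 points), *Marveld3* (2.70), *Mmp25* (2.74), *Wdr86* (2.87) and *2010001E11Rik* (2.89). *H2-Q7*, a non-classical MHC class I gene, had BS levels of 16.4% and 19.96% in shScr against 11.9% and 18.5% in shTet3, beside 17.5% and 21.8% in shScr against 10.9% and 21.5% in shTet3 for the 21 CpGs of *Nr2e1* covered in all libraries.

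The promoters of the neighbouring genes were low in methylation. That of *Ostm1* is no separate measure, since its 10 covered CpGs are those of the trough at the *Nr2e1* TSS given above. Its BS levels were 8.10% and 4.83% in shScr against 4.32% and 12.1% in shTet3. The promoter of *Snx3*, a sorting nexin of endosomes on the other side, had 1.18% and 1.94% against 1.07% and 1.75% (66 CpGs). The number of CpGs called in either direction was 0 at both.

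Genes that work with TLX were followed by their promoters in the BS libraries. Of 30 genes listed, 22 had a covered promoter CpG, and 10 of their 586 CpGs were lower in shTet3 (1.71%) and 0 higher, beside 1.36% lower of 299569 promoter CpGs of all protein-coding genes. The median difference of the 22 promoters was −0.155 points, beside −0.107 points over 12479 genes. At least 3 lower CpGs were found at 2 of the 22 (9.09%), beside 4.26% of all genes. One of them is *Nr2e3*, the photoreceptor receptor that is the closest relative of *Nr2e1*, with 58.8% and 78.1% in shScr against 34.7% and 37.5% in shTet3 at its 3 CpGs, all of which were lower. The other is *Rcor2*, a corepressor that binds LSD1, with 39.8% and 31.9% in shScr against 27.0% and 21.4% in shTet3 over 27 CpGs, 4 of which were lower. At both promoters the shTet3 replicates were below the shScr replicates without overlap, whereas at the *Nr2e1* promoter the groups overlapped. Such an order was found at 7 of the 22 promoters (31.8%), beside 27.3% of all genes. Both promoters are named for their lower CpGs, which favours this order, so it is no separate result.

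By role, 5 of 6 other members of the NR2 family were covered, with lower CpGs at *Nr2e3* alone, whereas *Nr2c1*, *Nr2c2* and *Nr2f6* were below 0.4% in the 4 libraries. Of the 9 corepressor partners 8 were covered, with lower CpGs at *Rcor2* alone, and the LSD1 gene *Kdm1a* was at 0.275% and 0.244% in shScr against 0% and 0.189% in shTet3. Of the 15 target genes 9 were covered, with 2 lower CpGs of 2 at *Aqp4*, a water channel of astrocytes, and 1 of 8 at *Sirt1*, a histone deacetylase. A lower CpG was thus found at 4 of the 22 covered genes, beside 1838 of 12479 protein-coding genes. The lower CpGs were 2.46% in the NR2 family, 1.65% in the corepressor partners and 1.35% in the targets, beside 1.36% of all promoter CpGs. These counts therefore single out no role. *Bmp4*, a signal for astrocyte formation, had 54.8% and 36.4% in shScr against 36.2% and 19.8% in shTet3 over 6 CpGs, a difference of −17.6 points with 0 CpGs called. It was named after its values were seen, and its shScr replicates were 18.3 points apart.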

How the data were processed

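oxRRBS calls of 8 libraries (BS and oxBS of 2 shScr and 2 shTet3 replicates) were used. The authors used Trim Galore (RRBS option) for trimming and Bismark with bowtie2 for alignment to mm9, and deposited the coverage of each CpG as an unnormalized count of calls. They also deposited the percent of these calls read as C and as T. Versions are not given in the sources used here. Every listed CpG had 5 or more calls in each library. All 38715 listed positions of chromosome 10 were the C of a CpG in the mm9 sequence (NCBIM37), and genes were those of GENCODE on this build.

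Methylated counts were recovered from percent and coverage (whole to within 1.2e-10 calls). A comparison used CpGs with 10 or more calls in each of its libraries, and means over CpGs were unweighted. Tests, tried on simulated data first, were as given in the text and used Python 3.11.15 with scipy 1.17.1. CpGs named were all those called in the BS or oxBS contrast, the 3 with the largest difference between the shScr BS libraries, the ends of the listed range and the CpGs at the TSS-proximal limit. The CpGs at 42300032, 42302521 and 42304323 and the covered CpG at −485 were added after their values were seen. Promoters were −1 kb to +0.5 kb of the longest transcript's TSS, and the like genes were the 5 with the smallest difference. The locus, the lists of genes and the tests were chosen with earlier results of these data known, and the gap between the shScr replicates at *Nr2e1* was among them. The values of 1 gene of the list are not reported here.

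For each shRNA, BS and oxBS libraries that share a replicate number were taken to come from 1 DNA sample, which their titles do not state. Their deviations had r = 0.508 across CpGs in shScr and 0.246 in shTet3. Libraries of shScr and shTet3 share only a number (r = −0.0282 in BS and −0.0361 in oxBS across all CpGs, 0.473 and 0.287 across those of the locus). Alternatives were coverage minimums of 5 and 20, read-weighted levels, other TSS limits, Fisher's exact test, an F test corrected for overdispersion, unweighted differences, the replicate block and leaving out each replicate. TSS limits around every *Nr2e1* transcript and a coverage minimum over all 8 libraries were added after seeing the data.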

Additional observations from a re-analysis of the deposited data

How the results depend on the processing

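Of 128 recomputed values, 102 were rated the same. For BS differences this means the same sign, for oxBS differences and 5hmC means a value within the replicate SD, and for counts a similar size. They include values that could not change, such as the mean differences under the replicate block. Leaving out each replicate gave BS differences of −9.31 to 2.34 points over the locus, −6.44 to 3.16 at the TSS-proximal and −16.4 to 6.14 at the other CpGs. The locus and the other CpGs turned positive only without shScr replicate 1, and the TSS-proximal CpGs only without shTet3 replicate 1. The difference between the TSS-proximal and the other CpGs ranged from −8.84 (without shScr replicate 1) to 15.2, and was −1.21 without shTet3 replicate 2. In oxBS the ranges were −6.42 to 0.721 (TSS-proximal, positive without shTet3 replicate 1) and −16.9 to 6.73 (other, positive without shScr replicate 1). With a coverage minimum of 20 the TSS-proximal difference was 0.400 in BS and 0.00169 in oxBS, and with limits of −0.5 to +0.5 kb it was 1.76 in BS, whereas no oxBS CpG was left. With a coverage minimum of 5 the BS difference was −2.01 over the locus and −2.79 at the other CpGs. Under the other settings with all replicates, the TSS-proximal difference lay between −3.47 and −1.04 in BS and between −4.71 and −1.24 in oxBS, and the difference between the TSS-proximal and the other CpGs between 1.21 and 6.36. The cause of these changes was not tested.

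The number of CpGs called lower in BS, 3, was 0 with a coverage minimum of 20 or with the F test and 1 to 11 without a replicate, 11 being without shScr replicate 2 and 1 without shScr replicate 1 or shTet3 replicate 1. The number higher was 0 to 3 (3 without shScr replicate 1). The 9 hypo-DMPs of the oxBS libraries were 0 with the F test and 2 to 18 without a replicate (18 without shScr replicate 2, 3 without shScr replicate 1, 2 without shTet3 replicate 1). The F test has few residual degrees of freedom with 2 libraries per group. At its unadjusted p under 0.05, only 1.86% of all CpGs in BS and 1.96% in oxBS were lower. It could therefore hardly call any CpG after adjustment, and its 0 says nothing about these calls. With the replicate block 5 CpGs were lower in BS and 11 in oxBS, and shScr and shTet3 libraries share only a number. The block, which pairs the BS and the oxBS library of a replicate number, changed no call of BS above oxBS, of which there were 0.

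The BS minus oxBS mean of shScr ranged from −2.37 to 1.05 points without a replicate, and was −2.31 with a coverage minimum of 5 and −0.0554 with read-weighted levels. That of shTet3 ranged from −0.898 to 0.0712 and was 0.251 and 0.317 with coverage minimums of 5 and 20. The low coverage at the TSS and the 2 replicates limit what can be seen.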
